A study of Drosophila melanogaster with 12 samples.

Results

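Transcript levels of 10 genes of the Notch pathway were followed in *Drosophila melanogaster* cells depleted of *barc* by RNA interference (RNAi). The genes were the receptor gene *N*, the ligand genes *Dl* and *Ser*, the genes *mib1*, *kuz*, *spdo* and *Su(H)* that act on ligand, receptor or nucleus, and the target genes *HLHmbeta*, *HLHmgamma* and *HLHmdelta* of the Enhancer of split, or E(spl), complex. They were taken by symbol from a table of 14210 genes, and each of the 10 symbols matched 1 row. *barc* (barricade) encodes the fly counterpart of Tat-SF1, a co-factor of splicing.

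Notch is a receptor that spans the cell membrane and is switched on by a ligand, Delta or Serrate, on a neighbouring cell. Endocytosis of the ligand, driven by ubiquitin ligases such as Mindbomb, exposes the receptor to cleavage by the metalloprotease Kuzbanian and then by gamma-secretase, and the freed intracellular part joins Suppressor of Hairless on target genes. In the fly brain the pathway is active in neuroblasts, the neural stem cells, and helps to keep some of them in the stem cell state. Numb removes Notch and its partner Sanpodo from the membrane of the differentiating daughter. The E(spl) complex holds basic helix-loop-helix (bHLH) repressors and genes of the Bearded family, many of which Notch switches on.

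Polyadenylated RNA was sequenced in 12 libraries of 4 groups. Brains of late 3rd instar larvae reared at 29 °C gave type I neuroblasts by fluorescence-activated sorting. The larvae came from flies with dicer2, the driver asense-Gal4 and the membrane marker UAS-CD8::GFP, mated with the empty landing site VIE-260B (TID 60100, control, 2 libraries) or with a *barc* RNAi line (TID 107013, 2 libraries), so dicer2, driver and marker were shared by both groups. S2 cells, a cell line of embryonic and blood-cell-like origin grown in Schneider's medium with 10% serum, were exposed for 7 days to double-stranded RNA of mCherry, which flies lack (control, 4 libraries), or of *barc* (4 libraries). The number of animals behind a sorted library is not given in the labels. The labels do not say whether replicates came from separate cohorts or cultures, so p-values rest on the spread among libraries, and that spread may be technical.

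Levels are in FPKM, which counts sequenced fragments per length of transcript and per mapped total, so that genes can be compared. Depth, read from the width of the deposited confidence intervals, was 27.1 to 30.4 M fragments (M, 1000000) in control neuroblasts, 42.0 to 48.7 M in *barc* RNAi neuroblasts, 18.8 to 28.6 M in S2 controls and 14.6 to 18.3 M in *barc* RNAi S2 cells. *barc* itself went from 90.2 ± 5.39 to 16.5 ± 2.02 FPKM in neuroblasts (mean ± SD, n = 2 per group) and from 22.1 ± 1.39 to 4.46 ± 1.99 FPKM in S2 cells (n = 4 per group). It fell to 0.18 times the control in neuroblasts and 0.20 times in S2 cells, with no overlap of groups in either system. Its exons overlap *rgn* and *CG33288* on the opposite strand. All 8 neuroblast markers listed were at 1 FPKM or more in each neuroblast library, and 3 of 8 reached that level in S2 cells, where *dpn*, *ase*, *wor* and *pros* were near 0. Their sum was 1782 to 1825 FPKM in neuroblast controls and 1669 to 1686 FPKM after *barc* RNAi, where *dpn* and *insc* were called lower. In S2 cells *insc* rose from a mean of 1.8 to 22.8 FPKM (2.89, limma adjusted p = 0.00178) and *brat* fell (-0.39, adjusted p = 0.0309). Markers of other cells also differed with *barc* RNAi in the neuroblast sort. The summed level of 8 neuron markers was 38.6 to 40.0 FPKM in controls and 48.3 to 48.5 FPKM after *barc* RNAi. Of them *elav* and *fne* rose and *Appl* fell, from a mean of 6.38 to 4.17 FPKM (-0.52, limma adjusted p = 0.00319). *CadN* was also called higher, but it averaged 0.97 FPKM in controls and 1.92 FPKM after *barc* RNAi. It met the mean of 1 FPKM needed for testing only through the *barc* RNAi group. The sum of 6 type II lineage markers was 12.7 to 14.1 and 15.5 to 15.7 FPKM, and that of 8 glial markers was 199 to 204 and 122 to 136 FPKM. Of the type II markers *Sp1* and *fd59A* rose (0.36 and 0.52, limma adjusted p = 0.0127 and 0.00935) and *erm* fell (-0.43, adjusted p = 0.0193). Sums of 8 hemocyte markers (43.4 to 44.3 and 37.5 to 39.6 FPKM) and of 5 optic lobe markers (76.4 to 77.6 and 66.6 to 67.8 FPKM) were also lower, and in S2 cells the hemocyte sum was 363 to 497 and 521 to 567 FPKM. Of these 8 markers only *He* was called in S2 cells, from a mean of 23.3 to 74.8 FPKM (1.70, limma adjusted p = 0.048). There *crq* averaged 315 and 345 FPKM and was not called (adjusted p = 0.408). *Hml* (3.24 and 2.18 FPKM) and *Pxn* (4.97 and 2.20 FPKM) were lower on average in S2 cells, also not called. Of the hemocyte markers tested in neuroblasts, *crq* and *Sr-CI* fell and *ush* was not called (0.23, limma adjusted p = 0.102). *Hml*, too low to be tested there, averaged 0.082 FPKM in controls and 0.20 FPKM after *barc* RNAi. Only *nrv2* and *Eaat1* of the glial markers reached 1 FPKM in neuroblasts, and *repo* was near 0. The part of these cells in the results below was not tested, and in such bulk samples fewer cells of a type cannot be told apart from less RNA per cell. The S2 libraries also carried a first number in their descriptions, which is 1 in replicates 1 and 2 of either group and 2 in replicates 3 and 4. Its meaning is not given, and several of the genes split along it.

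In the coordinates of the deposited tables, which belong to an earlier build than release 6 of the fly genome, *N* lay on chromosome X from 3028905 to 3066295. *Dl* lay on arm 3R from 15128453 to 15151935 and *Ser* on 3R from 22997818 to 23019716. *spdo* was on 3R from 26302406 to 26304571, *mib1* on 3L from 15999652 to 16004912, *kuz* on 2L from 13550141 to 13638238 and *Su(H)* on 2L from 15039496 to 15043335. The 3 E(spl) genes were neighbours on 3R, *HLHmdelta* from 21823343 to 21824355, *HLHmgamma* from 21825573 to 21826483 and *HLHmbeta* from 21830768 to 21831745. In the release 6 annotation the 3 E(spl) genes have no intron, *spdo* has 1, *Su(H)* 3, *mib1* 4, *Dl* 5, *N* 8, *Ser* 14 and *kuz* 15, the longest of which spans 50958 bases. *mib1* and *kuz* share exon positions with another annotated gene. The range of *mib1* in the tables overlaps that of *mRpS31*, on the opposite strand, by 50 bases, and *kuz* overlaps mir-2489 on its own strand. The libraries kept strand, but whether the authors' counting used it is not given in the sources used here.

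In neuroblast controls 8 of the 10 genes were well above 1 FPKM. *HLHmgamma* had the highest level of the 10 genes (147 ± 4.94 FPKM, n = 2), followed by *spdo* (71.0 ± 1.94), *N* (54.1 ± 3.03) and *Dl* (28.3 ± 0.46). *mib1* (17.7 ± 0.40), *kuz* (17.4 ± 0.45), *HLHmbeta* (15.5 ± 0.35) and *Su(H)* (13.3 ± 0.56) came next, and the ranges of *mib1* and *kuz* overlapped. *HLHmdelta* (1.25 ± 0.031) was low and *Ser* (0.030 ± 0.016) was at 3 to 6 implied fragments per library.

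S2 controls had another order. *kuz* (77.2 ± 20.1 FPKM, n = 4) and *mib1* (51.4 ± 4.53) led, with overlapping ranges, then *N* (15.5 ± 1.24), *Ser* (7.78 ± 0.78), *Su(H)* (6.46 ± 0.61) and *HLHmbeta* (4.99 ± 1.96). The ranges of *Ser* and *Su(H)* overlapped by little, 7.09 to 8.50 against 5.87 to 7.29, and that of *HLHmbeta*, 3.25 to 6.85, reached into that of *Su(H)* but not of *Ser*. *spdo* stood at 1.72 ± 0.97 FPKM, and *Dl*, *HLHmgamma* and *HLHmdelta* were below 0.21 FPKM in each S2 control. Levels in the 2 systems came from different library kits and were tested only through changes within each system.

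**Figure D1:**
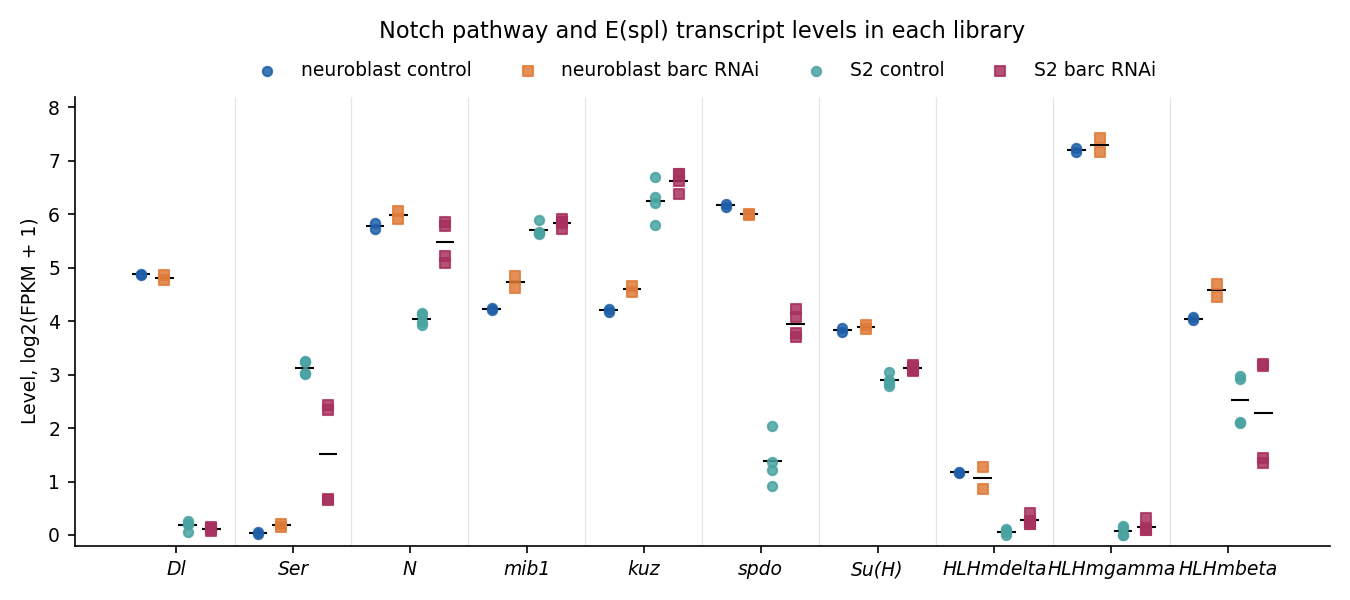
Level of each of the 10 genes in each of the 12 libraries, as log2(FPKM + 1) on the y axis, with genes on the x axis from ligands to targets. Points are libraries (circles control, squares barc RNAi) and black lines are group means. HLHmgamma and Dl are high in neuroblasts and near 0 in S2 cells, and Ser is the reverse.

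Of the 10 genes, 9 passed the filter of a mean of 1 FPKM in neuroblasts and 7 in S2 cells. In neuroblasts *N*, *mib1*, *kuz* and *HLHmbeta* rose and *spdo* fell, by limma at an adjusted p under 0.05, which makes 5 of 9 called where 42.9% of all 6732 genes tested were called (19.1% higher and 23.8% lower). In S2 cells *N* and *spdo* rose and *Ser* fell, 3 of 7 called against 26.7% of 7603 genes (11.5% higher and 15.2% lower). With no filter none of the 10 genes was called in neuroblasts, and in 1 fit over all 4 groups *mib1* alone was. Rescaling to TPM moved the share of higher genes among all calls from 44.4% to 66.5% in neuroblasts and from 43.2% to 53.3% in S2 cells, with no change of sign in a called gene of the 10. The median log2 fold change of the genes tested was 0.09 in neuroblasts, where that of all genes was -0.02, and 0.23 in S2 cells, where that of all genes was -0.06. A log2 fold change here is the mean log2(FPKM + 1) of *barc* RNAi libraries less that of controls, a scale that makes changes of low genes look smaller.

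**Figure D2:**
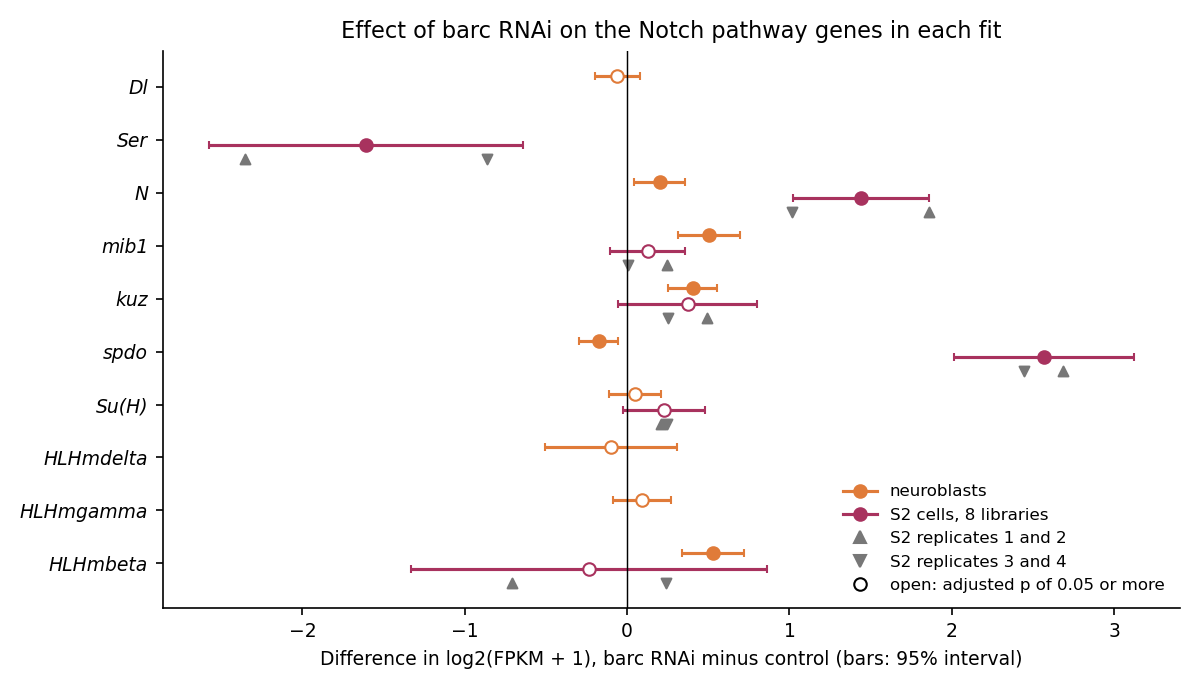
Difference in log2(FPKM + 1), barc RNAi minus control, for the genes that entered each limma fit. Circles with 95% intervals are the fits of neuroblasts and of all 8 S2 libraries, open where the adjusted p was 0.05 or more, and triangles are S2 values within replicates 1 and 2 or 3 and 4. spdo and N are near 0 in neuroblasts and far to the right in S2 cells, and the 2 triangles lie apart for Ser, N and HLHmbeta.

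Of the ligand genes, *Dl*, which encodes Delta, was the one with RNA well above 0 in neuroblasts, and *Ser*, which encodes Serrate, was that in S2 cells. *Dl* read 28.0 and 28.7 FPKM in the control neuroblasts and 26.3 and 28.0 FPKM after *barc* RNAi. The groups overlapped by their nearest libraries, and the difference of -0.06 (SE 0.061, limma adjusted p = 0.459) was not called, with a 95% interval from -0.20 to 0.079. In each neuroblast library *Dl* made up at least 99.4% of the FPKM of both ligands together. In S2 cells *Dl* was between 0.038 and 0.21 FPKM in controls and between 0.048 and 0.11 FPKM after *barc* RNAi, at 1.8 to 13.8 implied fragments per library, and was not tested.

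*Ser* fell in S2 cells. It read 7.12, 7.09, 8.50 and 8.40 FPKM in control replicates 1 to 4 and 0.57, 0.60, 4.36 and 4.04 FPKM in *barc* RNAi replicates 1 to 4. All *barc* RNAi libraries were below all controls, and replicates 1 and 2 were far below replicates 3 and 4. The log2 fold change was -1.61 (standard error 0.43, limma adjusted p = 0.0251), and the call was lost without any of control replicates 1, 2 or 3 or *barc* RNAi replicates 1 or 2 (adjusted p between 0.0566 and 0.0655), and with no filter on mean FPKM (adjusted p = 0.0762). For S2 cells the authors' deposited table gives a log2 ratio of -1.70 with an adjusted p of 7.28e-06. In neuroblasts *Ser* read 0.018 and 0.041 FPKM in controls and 0.15 and 0.12 FPKM after *barc* RNAi, or 3 to 6 against 26 to 39 implied fragments. It was below the filter there. The authors' deposited table gives it a log2 ratio of 2.07 with an adjusted p of 0.0114, from a mean signal of 5.80 to 24.3.

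The receptor gene *N* was higher after *barc* RNAi in both systems, by unlike amounts. In neuroblasts it read 51.9 and 56.2 FPKM in controls and 65.8 and 58.9 FPKM after *barc* RNAi, with no overlap but a gap smaller than the spread within either group. The log2 fold change was 0.20 (standard error 0.069, limma adjusted p = 0.0440), and the call was lost without either control (adjusted p = 0.237 and 0.0573) or without *barc* RNAi replicate 1 (adjusted p = 0.224). The authors' deposited table gives 0.16 with an adjusted p of 0.0307. In S2 cells the controls read 14.8, 14.2, 16.3 and 16.8 FPKM and the *barc* RNAi libraries 56.7, 53.7, 33.0 and 36.1 FPKM. Each *barc* RNAi library lay far above each control, with replicates 1 and 2 the highest. The mean rose 2.89-fold, from 15.5 ± 1.24 to 44.9 ± 12.1 FPKM (log2 fold change 1.44 with SE 0.18, by limma adjusted p = 0.00165).

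*mib1*, whose ubiquitin ligase drives the endocytosis of both ligands, rose in neuroblasts. It read 18.0 and 17.5 FPKM in controls and 27.9 and 23.5 FPKM after *barc* RNAi, with no overlap (log2 fold change 0.50 with SE 0.083, by limma adjusted p = 0.00170). *mRpS31*, which overlaps it, was not called there (0.08, adjusted p = 0.351). In S2 cells *mib1* read 49.3, 48.5, 58.2 and 49.7 FPKM in controls and 57.2, 59.3, 51.9 and 56.2 FPKM after *barc* RNAi. Control replicate 3 lay among the *barc* RNAi libraries, and the difference of 0.13 (SE 0.10, limma adjusted p = 0.370) was not called.

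*kuz* encodes the metalloprotease that makes the first ligand-dependent cut in Notch. In neuroblasts it rose from 17.1 and 17.7 FPKM to 24.2 and 22.5 FPKM, with no overlap (log2 fold change 0.40 with SE 0.066, by limma adjusted p = 0.00164). In S2 cells the controls read 78.8, 72.7, 54.4 and 103 FPKM and the *barc* RNAi libraries 107, 107, 82.1 and 97.8 FPKM. Control replicate 4 lay above 2 of the *barc* RNAi libraries, and the difference of 0.37 (SE 0.19, limma adjusted p = 0.166) was not called. Without that control it was 0.52 (adjusted p = 0.0411).

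*spdo* encodes Sanpodo, a membrane protein that binds Notch and Numb and is needed for signalling in asymmetrically dividing cells. In neuroblasts it read 72.4 and 69.6 FPKM in controls and 62.5 and 63.1 FPKM after *barc* RNAi, so both *barc* RNAi libraries were lower. The log2 fold change of -0.17 (standard error 0.053, limma adjusted p = 0.0269) was called. It was not called when FPKM was rescaled to TPM (-0.08, adjusted p = 0.254) or quantile normalized (-0.13, adjusted p = 0.0939), nor without either control or *barc* RNAi replicate 1 (adjusted p between 0.0607 and 0.148). In S2 cells *spdo* read 1.32, 0.88, 1.58 and 3.10 FPKM in controls and 12.1, 12.8, 15.8 and 17.7 FPKM after *barc* RNAi. The lowest *barc* RNAi library was far above the highest control. The mean rose 8.49-fold, from 1.72 ± 0.97 to 14.6 ± 2.62 FPKM (log2 fold change 2.57 with SE 0.24, by limma adjusted p = 0.000598), the largest of the tested changes of the 10 genes by this scale.

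*Su(H)*, the DNA-binding partner of the Notch intracellular part, was not called in either system. It read 12.9 and 13.7 FPKM in control neuroblasts and 14.1 and 13.5 FPKM after *barc* RNAi, with overlap (0.05, SE 0.070, limma adjusted p = 0.618, 95% interval -0.11 to 0.21). In S2 cells it read 6.19, 6.46, 5.87 and 7.29 FPKM in controls and 7.39, 7.52, 7.86 and 8.03 FPKM after *barc* RNAi. Each *barc* RNAi value was above each control by a small margin, and the log2 fold change of 0.23 (SE 0.11) had a limma adjusted p of 0.157.

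The 7 E(spl) bHLH genes together read 195.8 to 206.8 FPKM in control neuroblasts and 204 to 242 FPKM after *barc* RNAi. *HLHmgamma* dominated. It read 143 and 150.1 FPKM in controls and 143 and 170.1 FPKM after *barc* RNAi, with overlap, and its difference of 0.09 (SE 0.078, limma adjusted p = 0.384, 95% interval -0.09 to 0.27) was not called. Without *barc* RNAi replicate 1 it was 0.21 (adjusted p = 0.0207). In S2 cells *HLHmgamma* was at 0 to 4 implied fragments per library and was not tested.

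*HLHmbeta* was the E(spl) bHLH gene called in neuroblasts. It rose from 15.3 and 15.8 FPKM to 20.9 and 24.9 FPKM with no overlap (log2 fold change 0.53 with SE 0.084, by limma adjusted p = 0.00145), and the authors' deposited table gives 0.49 with an adjusted p of 0.000146. Its share of the bHLH sum was 7.64% to 7.81% in controls and 10.2% to 10.3% after *barc* RNAi, while that of *HLHmgamma* was 72.6% to 73.1% and 70.0% to 70.4%. These shares have no test. In S2 cells *HLHmbeta* read 3.34, 3.25, 6.85 and 6.52 FPKM in controls and 1.55, 1.70, 8.18 and 7.95 FPKM after *barc* RNAi. Both *barc* RNAi libraries were below both controls in replicates 1 and 2 and above both in replicates 3 and 4, and the pooled difference of -0.24 (SE 0.48, limma adjusted p = 0.743) was not called.

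*HLHmdelta* was low throughout. It read 1.28 and 1.23 FPKM in control neuroblasts and 1.43 and 0.82 FPKM after *barc* RNAi, with overlap (-0.10, SE 0.18, limma adjusted p = 0.689). In S2 cells it read 0.086, 0.035, 0 and 0.051 FPKM in controls and 0.33, 0.20, 0.16 and 0.16 FPKM after *barc* RNAi. That is 0 to 2 against 3 to 6 implied fragments, below the filter. The authors' deposited table gives a log2 ratio of 2.48 with an adjusted p of 0.112.

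Along the complex, the levels of the other genes were unlike one another. In control neuroblasts *E(spl)*, the bHLH gene also called m8, read 32.3 ± 1.90 FPKM (n = 2) and *HLHm7* 4.97 ± 0.87 FPKM, and after *barc* RNAi 35.2 ± 3.99 and 6.30 ± 0.59 FPKM. Neither was called (0.12, limma adjusted p = 0.284, and 0.30, adjusted p = 0.0776). *HLHm3* (0.55 ± 0.29 FPKM) and *HLHm5* (0.11 ± 0.023 FPKM) were below the filter. Of the Bearded family, whose small proteins inhibit the ubiquitin ligase Neuralized, *malpha* read 10.6 ± 0.76 FPKM in controls and rose to 12.8 ± 0.46 FPKM (0.25 on the log2 scale, limma adjusted p = 0.0282). This gene of the family is not called in the authors' deposited table (0.36, adjusted p of 0.0701). The others were below 1 FPKM on average in both neuroblast groups, from *m2* (0.80 ± 0.26 FPKM) and *m4* (0.77 ± 0.25) through *Tom* (0.47 ± 0.066), *Ocho* (0.19 ± 0.16), *m6* (0.18 ± 0.094) and *Brd* (0.12 ± 0.080) to *BobA* (0.060 ± 0.0058) in controls. In S2 cells *HLHmbeta* made up 65.1% to 96.1% of a bHLH sum of 2.28 to 9.07 FPKM. *malpha* averaged 0.38 ± 0.34 FPKM in S2 controls (n = 4), and *E(spl)*, *HLHm5* and *HLHm7* were listed at 0 in each S2 control.

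**Figure D3:**
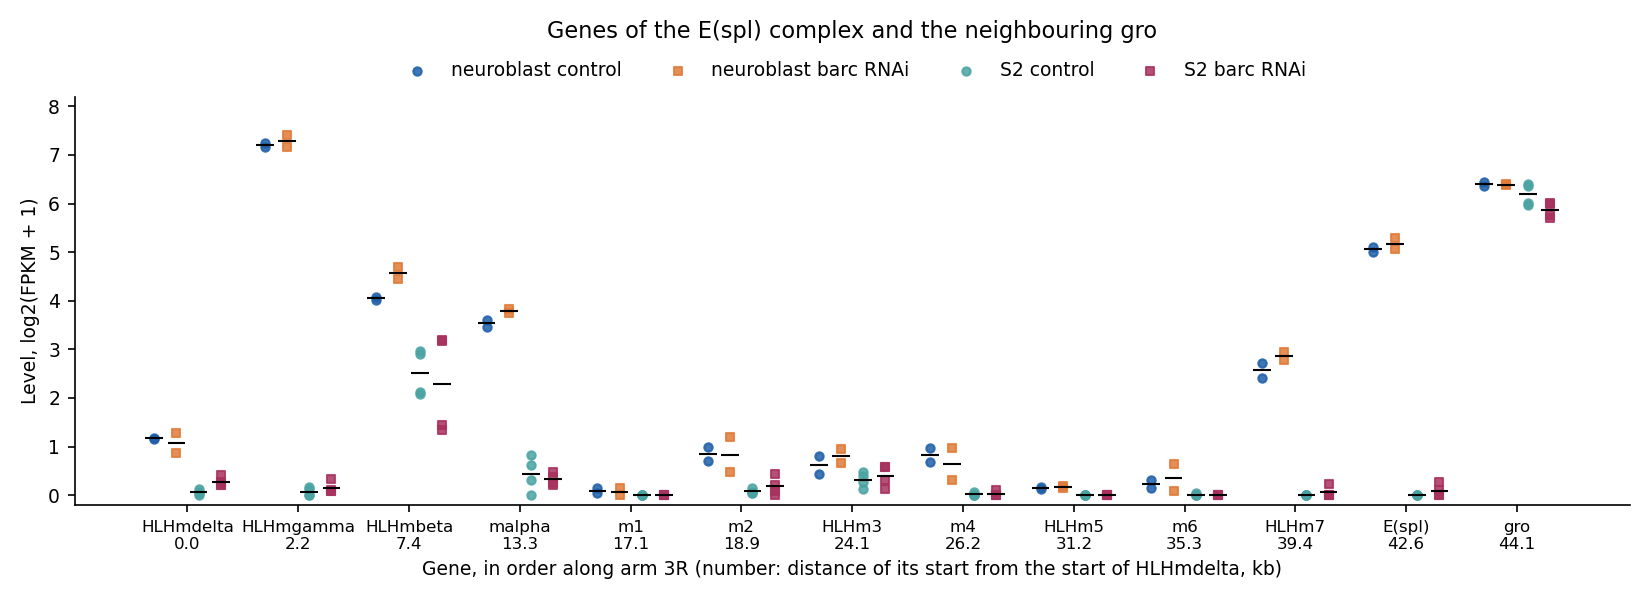
Levels of the genes of the E(spl) complex in their order along arm 3R, with gro at the end, as log2(FPKM + 1) on the y axis. The numbers under the symbols are distances in kilobases from the start of HLHmdelta, points are libraries and black lines group means. Of the genes of the complex itself, HLHmgamma, E(spl), HLHmbeta, malpha and HLHm7 stand above the rest in neuroblasts and HLHmbeta does in S2 cells, while the neighbour gro is high in all groups.

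The first number of the S2 descriptions separated the effect of *barc* RNAi on several of the genes. Replicates 1 and 2 and replicates 3 and 4 were fitted apart, and the difference of the 2 effects was tested in a limma interaction added after the data were seen. Of the 7 genes tested, 3 were called, 1 of them lower and 2 higher, against 22.4% of 7603 genes (6.47% lower and 15.9% higher). *N* rose 3.81-fold in replicates 1 and 2, from a mean of 14.5 to 55.2 FPKM, and 2.09-fold in replicates 3 and 4, from 16.6 to 34.6 FPKM. The difference of the log2 effects, replicates 3 and 4 minus 1 and 2, was -0.84 (SE 0.13, limma adjusted p = 0.00528).

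*Ser* fell to 0.082 times the control in replicates 1 and 2 (7.11 to 0.58 FPKM) and to 0.50 times in replicates 3 and 4 (8.45 to 4.20 FPKM), a difference of 1.49 in log2 effect (SE 0.15, limma adjusted p = 0.00100). For *HLHmbeta* the log2 effect was -0.71 (SE 0.11, adjusted p = 0.00127) in replicates 1 and 2 and 0.24 (SE 0.14, adjusted p = 0.310, not called) in replicates 3 and 4, a difference of 0.95 (SE 0.15, limma adjusted p = 0.00486). *HLHmbeta* was also higher in the controls of replicates 3 and 4 than in those of 1 and 2. *spdo* rose in both, by 2.69 and 2.45 on the log2 scale, and the difference of -0.24 was not called (95% interval -0.95 to 0.47). *barc* itself read 5.80 FPKM on average in *barc* RNAi replicates 1 and 2 and 3.12 FPKM in 3 and 4, its log2 effects were -1.82 and -2.46, and their difference was not called (limma adjusted p = 0.144). *N* and *Ser* changed more in replicates 1 and 2, and *neur*, given below, changed more in replicates 3 and 4. Whether these changes follow the remaining level of *barc* was not tested. What the first number stands for was not tested.

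**Figure D4:**
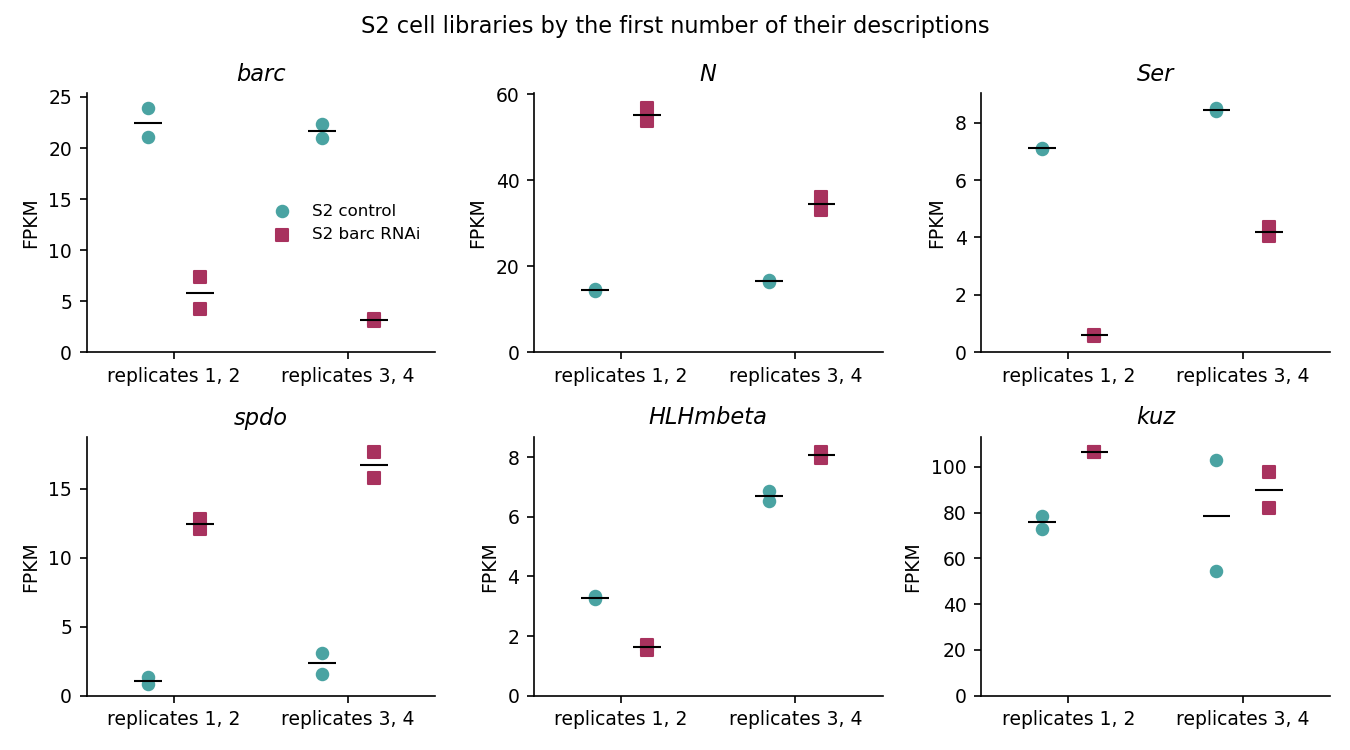
FPKM of barc, N, Ser, spdo, HLHmbeta and kuz in the 8 S2 libraries, split by the first number of their descriptions (replicates 1 and 2 left, 3 and 4 right). Circles are control and squares barc RNAi libraries, black lines are means, and each y axis starts at 0. N and Ser move further in replicates 1 and 2, and HLHmbeta is lower after barc RNAi in replicates 1 and 2, with a difference in 3 and 4 that was not called.

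Whether the *barc* effect differed between neuroblasts and S2 cells was tested as an interaction over all 12 libraries. It was called for 2 of the 9 genes tested, with the lower effect in neuroblasts for both. *Dl* and *HLHmgamma*, near 0 FPKM in S2 cells, passed the filter of this fit only through neuroblasts, and *Ser* only through S2 cells. Where they were near 0 FPKM, their effect on log2(FPKM + 1) is held near 0. For them the difference mostly restates the effect in the other system. Of 7647 genes in the fit 6.02% were called (2.62% lower and 3.40% higher in neuroblasts). The effect on *spdo* in neuroblasts less that in S2 cells was -2.74 on the log2 scale (SE 0.37, limma adjusted p = 0.00234). For *N* it was -1.24 (SE 0.29, limma adjusted p = 0.0311). With replicate number as a block the adjusted p for *N* was 0.0521, and the call was also lost under TPM (adjusted p = 0.0658), without any 1 neuroblast library, and without S2 control replicates 1 or 2 or S2 *barc* RNAi replicate 2 (adjusted p between 0.0514 and 0.149). For *Ser* the difference of 1.75 (SE 0.67, limma adjusted p = 0.157) was not called. *mib1* was called in neuroblasts and not in S2 cells, but the difference between them (0.38, SE 0.15, limma adjusted p = 0.173) was not called, and for *kuz* it was 0.03 (95% interval -0.61 to 0.67).

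Beyond the 10 genes, lists of the pathway held 80 genes including them. The 80 also include *her*, a sex determination gene given below, which was called higher in both systems. In neuroblasts 63 were tested, of which 12 rose and 12 fell where 42.9% of all genes were called (19.1% higher and 23.8% lower), with a median log2 fold change of -0.0011 to set beside -0.02 for all genes. That split rests on the scaling, since under TPM 21 rose and 3 fell, with no called gene changing its sign. The calls lost under TPM were those of *aux*, *Psn*, *spdo*, *numb*, *shi*, *TSG101*, *insv*, *dm* and *emc*, all lower in neuroblasts (adjusted p between 0.120 and 0.403). In S2 cells 56 were tested, of which 14 rose and 3 fell where 26.7% of all genes were called (11.5% higher and 15.2% lower), with a median of 0.14 beside -0.06 for all genes. In S2 replicates 3 and 4 alone 4 of 55 rose and 2 fell, against 12.1% of 7646 genes (5.92% higher and 6.20% lower). In replicates 1 and 2 alone 25 of 55 rose and 20 fell, against 73.1% of 7468 genes (28.0% higher and 45.1% lower).

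Of the 8 genes of ligand activation, 2 rose and 2 fell in neuroblasts (42.9% of all genes called) and 3 rose in S2 cells (26.7% called). *Rab11*, which recycles endosomes, fell in neuroblasts by 0.34 on the log2 scale (limma adjusted p = 0.00143), and *lqf*, the epsin that carries ubiquitinated ligand, rose (0.25, adjusted p = 0.0137). *aux*, the auxilin that uncoats clathrin vesicles, was lower in neuroblasts (-0.19, limma adjusted p = 0.0316) and higher in S2 cells (0.72, adjusted p = 0.0165), a difference that was not called (adjusted p = 0.0676). Its fall in neuroblasts is not called in the authors' deposited table (-0.17, adjusted p of 0.0694). *l(2)gd1*, an endosomal regulator of Notch, and *lqf* rose in S2 cells (0.55 and 0.33, limma adjusted p = 0.0380 and 0.0460). Neither rise is called in the authors' deposited table (0.59 and 0.38, adjusted p of 0.079 and 0.295). *neur*, the ligase that acts beside Mindbomb, was not called in either system (-0.01 and 0.47, limma adjusted p = 0.948 and 0.475). The authors' deposited table gives *neur* a log2 ratio of 0.67 in S2 cells with an adjusted p of 0.0163. In S2 cells its mean after *barc* RNAi was 0.87 times the control in replicates 1 and 2 and 2.25 times in replicates 3 and 4. The difference of these effects was called (1.31, limma adjusted p = 0.0119), as was the rise within replicates 3 and 4 alone (1.13, adjusted p = 0.0252), while replicates 1 and 2 gave -0.18 (adjusted p = 0.230).

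Among 12 genes of receptor glycosylation and cleavage, 2 of the 11 tested rose and 1 fell in neuroblasts, and 2 of 11 rose in S2 cells, beside 42.9% and 26.7% of all genes called. Of the gamma-secretase subunits, *pen-2* rose (0.30, limma adjusted p = 0.00719) and *Psn*, the catalytic presenilin, fell in neuroblasts (-0.20, adjusted p = 0.0130). The authors' deposited table calls neither (0.14 and -0.15, adjusted p of 0.441 and 0.0796). *Psn* was not called in S2 cells (-0.18, adjusted p = 0.357). *nct*, the nicastrin gene, was not called in neuroblasts (0.11, limma adjusted p = 0.163) and rose in S2 cells from 66.0 ± 14.7 to 106 ± 9.57 FPKM (0.70, limma adjusted p = 0.0179). *fng*, a glycosyltransferase that tunes the choice of ligand, rose there from 3.60 ± 1.23 to 10.5 ± 4.31 FPKM (1.29, limma adjusted p = 0.0159). The rise was 5.52-fold in replicates 1 and 2. In replicates 3 and 4 the mean was 1.47 times the control and was not called alone (0.48, limma adjusted p = 0.107), and the difference of the effects was called (-1.62, adjusted p = 0.00140).

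Of 14 genes of receptor trafficking and turnover, 13 were tested in neuroblasts, where 2 rose and 5 fell, and 14 in S2 cells, where 4 rose and 2 fell. The shares called among all genes were 42.9% and 26.7%. *Vps25*, a subunit of the endosomal sorting complex that sends Notch to degradation, fell in both systems. It went from 51.8 ± 1.54 to 27.9 ± 4.16 FPKM in neuroblasts (-0.88, limma adjusted p = 0.000160) and from 51.1 ± 8.48 to 21.7 ± 5.45 FPKM in S2 cells (-1.21, adjusted p = 0.00400). The S2 level fell to 0.307 times the control in replicates 1 and 2. It was 0.565 times in replicates 3 and 4, not called alone (-0.78, limma adjusted p = 0.0514), and the difference of the effects was called (0.86, adjusted p = 0.0273). *Su(dx)*, a ubiquitin ligase that sends Notch into endosomes, rose in neuroblasts (0.24, limma adjusted p = 0.0116) and fell in S2 cells (-0.71, adjusted p = 0.0131), and this difference was called (0.94, adjusted p = 0.0405). *shrb* rose in neuroblasts by 0.21 and in S2 cells by 0.45 (limma adjusted p = 0.0113 and 0.0165). *shi*, the dynamin gene, fell by 0.21 in neuroblasts, while *Nak* (0.76) and *krz* (0.48) rose in S2 cells. The S2 rises of *shrb* and *krz* are not called in the authors' deposited table (0.47 and 0.42, adjusted p of 0.154 and 0.216). *numb*, the inhibitor of Notch and Sanpodo, read 135 ± 3.33 FPKM in control neuroblasts and fell by 0.19 on the log2 scale (limma adjusted p = 0.0223), a call lost under TPM (adjusted p = 0.210), and was not called in S2 cells (-0.15, adjusted p = 0.838). There it fell in replicates 1 and 2 by 0.43 (limma adjusted p = 0.00898) and stood at 0.14 (adjusted p = 0.570) in replicates 3 and 4, a difference of 0.57 that was called (adjusted p = 0.0408).

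Of 12 genes of the nuclear complex, 1 rose and 1 fell in neuroblasts, where 42.9% of all genes were called, and 3 rose in S2 cells, where 26.7% were. *skd*, a subunit of the Mediator kinase module, rose in both (0.35, limma adjusted p = 0.00395, and 1.10, adjusted p = 0.0242), and *kto* of the same module rose in S2 cells (0.49, adjusted p = 0.0181). That rise of *kto* is not called in the authors' deposited table (0.56, adjusted p of 0.0808). *insv*, a co-repressor that binds Su(H), fell in neuroblasts from 70.0 ± 0.23 to 60.6 ± 1.73 FPKM (-0.21, limma adjusted p = 0.0134). It rose in S2 cells from 1.12 ± 0.11 to 10.4 ± 4.05 FPKM (2.35, adjusted p = 0.000736), and the difference was called (-2.56, adjusted p = 0.00345). Its S2 rise was 11.6-fold in replicates 1 and 2 and 6.58-fold in replicates 3 and 4, a difference in log2 effect of -0.81 (limma adjusted p = 0.0179). The coactivator gene *mam* (-0.01 and 0.22), the antagonist gene *H* (-0.09 and -0.04) and the co-repressor gene *gro* (-0.02 and -0.32) were not called in either system.

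Of 9 other genes listed as targets, 7 were tested in neuroblasts, where 2 rose and 2 fell, and 6 in S2 cells, where 1 rose (42.9% and 26.7% of all genes called). *dpn*, a bHLH repressor gene that Notch activates in neuroblasts and a neuroblast marker, fell from 170.1 ± 2.90 to 132 ± 4.57 FPKM (-0.37, limma adjusted p = 0.000765). *klu* rose (0.16, adjusted p = 0.0427) and *dm*, the fly Myc gene, fell (-0.15, adjusted p = 0.0424). The fall of *dm* is not called in the authors' deposited table (-0.16, adjusted p of 0.0539). *her* rose in neuroblasts (0.35, limma adjusted p = 0.00203) and in S2 cells (0.46, adjusted p = 0.0254). Its S2 rise is not called in the authors' deposited table (0.53, adjusted p of 0.165). *her* is hermaphrodite, a sex determination gene, and not a bHLH gene of the Hes family. It is the 1 gene of this list that rose in S2 cells and, beside *klu*, 1 of the 2 that rose in neuroblasts. Of 7 proneural genes and partners, 4 were tested in neuroblasts, where *emc*, an inhibitor of bHLH dimers, fell (-0.17, adjusted p = 0.0499), and 2 in S2 cells, where neither was called.

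**Figure D5:**
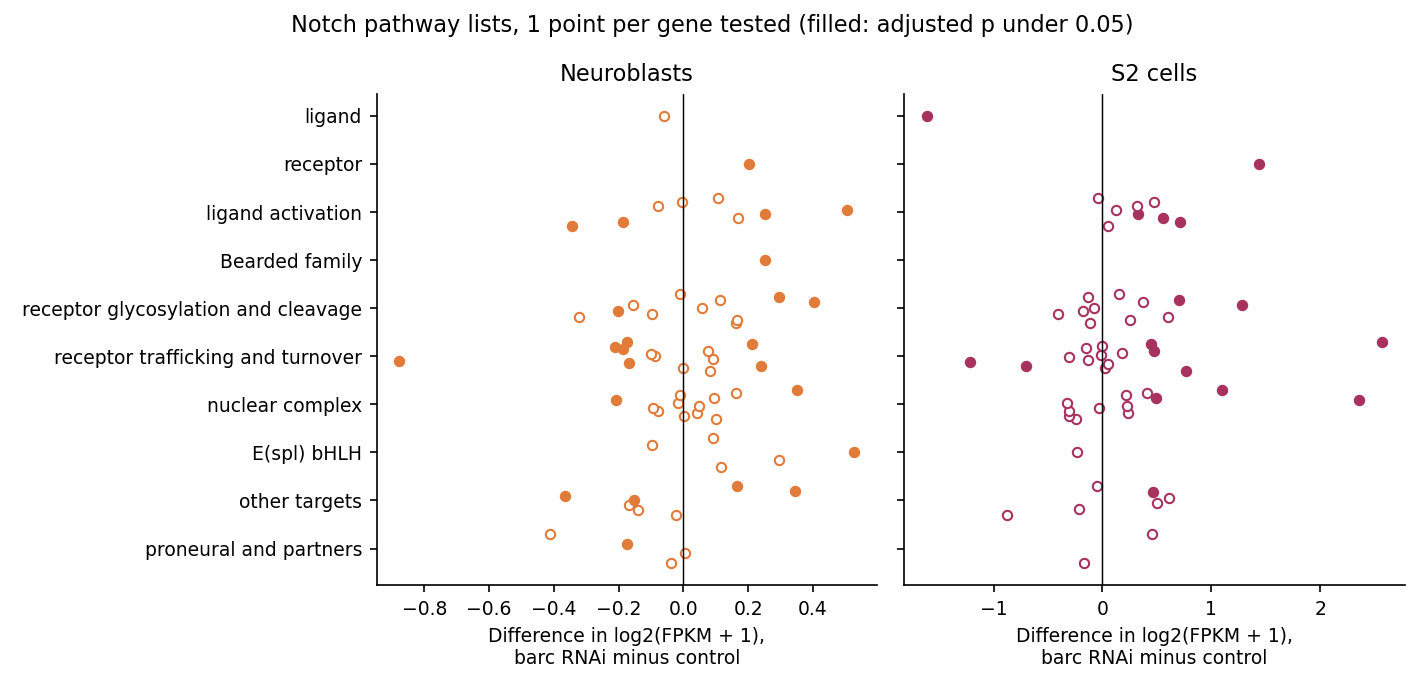
Difference in log2(FPKM + 1), barc RNAi minus control, for each tested gene of the pathway lists, by list (y axis), in neuroblasts (left) and S2 cells (right, on a wider x axis). Each point is 1 gene, filled where the limma adjusted p was under 0.05. Filled points lie on both sides of 0 in neuroblasts and mostly to the right in S2 cells.

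The genes nearest to each of the 10 in pattern were sought among 8195 genes by the root mean square difference of centred log2(FPKM + 1) over the 12 libraries. This is a description. *HLHmgamma* was nearest to *wor*, a neuroblast transcription factor gene (0.11), and *CR31386* (0.13), and *Dl* to *vvl* (0.07) and *VhaM9.7-a* (0.08), all near 0 FPKM in S2 cells. *N* was nearest to *Tpc2* (0.13) and *blue* (0.18), and *Ser* to *fs(1)Yb* and *CG34437* (0.23 for both). *spdo* was nearest to *Nrt* (0.42) and *Sip1* (0.44), and *Nrt* read 125 FPKM in control and 111 FPKM in *barc* RNAi neuroblasts and 2.12 and 14.3 FPKM in the S2 groups. The nearest were *CG8230* (0.12) and *PNUTS* (0.14) for *mib1*, *CG31886* and *CG7029* (0.13 for both) for *kuz*, and *CG2199* (0.06) and *CG4282* (0.08) for *Su(H)*. They were *Fancl* (0.19) and *CG7352* (0.26) for *HLHmbeta*, and *Ndfip* and *ASPP* (0.11 for both) for *HLHmdelta*. *Ndfip* read 49.5 and 47.2 FPKM in the control and *barc* RNAi neuroblasts and 22.1 and 26.2 FPKM in the S2 groups. *HLHmdelta* read 1.25, 1.13, 0.043 and 0.21 FPKM in the same order, levels at which adding 1 shrinks its changes.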

How the data were processed

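Levels are FPKM as the authors deposited them, 1 table per library with the columns of Cufflinks per the file headers. The authors' 2 deposited comparison tables give a mean signal per group (counts over size factors), a ratio of the means (fold), its log2 and p-values with adjusted p-values, per the file headers. The submitters' processing notes name Cufflinks 1.3.0, TopHat 1.4.1, BWA 0.6.1, DESeq and HTSeq. The build is not given in the sources used here. No other samples' columns were present (0 left unused).

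Here limma 3.58.1 (R 4.3.3, eBayes with trend) was run on log2(FPKM + 1), 1 fit per system, for genes averaging 1 FPKM or more with an OK status in each library (47 genes left out for status in neuroblasts, 41 in S2 cells). The interaction was fitted over all 12 libraries. Tests were two-sided with Benjamini-Hochberg adjustment over all genes tested, called under 0.05. The fits were tested on simulated data. Implied fragments are the square of 2 FPKM over the distance to the upper confidence bound, and 92.0% to 92.6% of those under 200 in single-transcript genes lay within 0.02 of a whole number. No replicate pair was as close as sampling noise. Same-numbered S2 libraries deviated together (correlations 0.58, 0.59, 0.59 and 0.45 over genes), and so did those sharing a first number (0.62 for control 1 with *barc* RNAi 2). Same-numbered neuroblast libraries did not (0.067). The genes and lists were chosen with earlier results of these data known. Named genes are the 10, the E(spl) and Bearded genes, up to 4 called genes per list and system with the largest change, 8 core genes, and the nearest genes in pattern. Alternatives were other pseudocounts, filters, scalings, blocks and left-out libraries.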

Additional observations from a re-analysis of the deposited data

Results flagged for a closer look

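The effect of *barc* RNAi differed between neuroblasts and S2 cells, by the limma interaction, for 4 of the 40 named genes tested, where 6.02% of all 7647 genes were called. Among the 40 were genes near 0 FPKM in a system, such as *Dl*, *HLHmgamma*, *dpn* and *E(spl)* in S2 cells and *Ser* in neuroblasts. Their effect there is held near 0. The difference, neuroblasts minus S2 cells, was -1.24 for *N*, -2.74 for *spdo*, 0.94 for *Su(dx)* and -2.56 for *insv* on the log2 scale. The call on *N* was lost with the replicate block, under TPM and without any of 7 libraries. Within S2 cells the effect differed between replicates 3 and 4 and replicates 1 and 2, for 8 of the 34 named genes tested, where 22.4% of all 7603 genes were called. It differed by -0.84 for *N*, 1.49 for *Ser*, 0.95 for *HLHmbeta*, 1.31 for *neur*, -1.62 for *fng*, 0.57 for *numb*, 0.86 for *Vps25* and -0.81 for *insv*.

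Among 68 S2 groups of 4 libraries, 14 of them of the 10 genes, 2 held a library far from the others. *mib1* read 58.2 FPKM in S2 control replicate 3 and 48.5 to 49.7 FPKM in the other controls. *lqf* read 34.9 FPKM in the same library and 42.3 to 43.0 FPKM in the other controls. Chance flags about 1 in 20 such groups.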

How the results depend on the processing

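No result of the 10 genes reversed with a call under any alternative run. In neuroblasts 2888 of 6732 genes were called, 1 of 14126 with no filter (none of the 10 genes, 0) and 356 of 6714 in 1 fit over all groups (1 of the 10 genes). Left-out libraries gave 1847 to 2959 genes and 3 to 5 of the 10, with 1847 and 1897 without control 1 or 2. TPM moved the split from 1283 higher and 1605 lower to 2067 and 1041. In S2 cells 2030 of 7603 genes were called, and 3496 with first number as a block. In replicates 1 and 2 alone 5460 were called, 73.1% of 7468 genes, and 6 of the 10. In replicates 3 and 4 alone 927 were called, 12.1% of 7646 genes. Left-out libraries gave 1104 to 2513 of 7577 to 7629 genes and 2 to 4 of the 10, lowest without control 1 or 2 or *barc* RNAi 1 or 2. TPM moved the median of all S2 genes from -0.06 to 0.06 and the split from 876 and 1154 to 932 and 816. The difference between systems gave 460 calls, 712 with no filter, 288 at a mean of 5 FPKM, 749 with the replicate block (1 of the 10 genes) and 384 under TPM (1 of the 10), and 123 to 1012 (1 to 2 of the 10) with left-out libraries, moved most without any neuroblast library (123 to 176), S2 control 2 (296) or S2 control 4 (1012). The S2 first-number difference gave 1702, and 648 to 4118 (3 to 5 of the 10) with left-out libraries, of which controls 3 and 4 gave more calls (4118 and 3168) and each other fewer (648 to 924). The replicate block gave 3158 calls in neuroblasts and 2778 in S2 cells and changed no other call of the 10 genes. The cause of these moves was not tested. The replicate block and TPM runs of the difference between systems each tested 7647 genes. Calls on *N* and *spdo* in neuroblasts and *Ser* in S2 cells were lost in 5, 7 and 6 alternatives. Depth limits *Ser* in neuroblasts and *Dl*, *HLHmgamma* and *HLHmdelta* in S2 cells.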
